A study of Mus musculus with 3 samples.

Results

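The genes described here are 44 genes of the cell cycle and of DNA replication, taken by their GENCODE M21 gene names out of 55536 annotated mouse genes, of which 22028 are protein-coding. All 44 names were found in the files, and the list was drawn up by name, with earlier results of these data known. They comprise 5 D cyclins and their kinases, 3 CDK inhibitors, 5 genes of the RB and E2F families, 4 E and A cyclins with CDK2, 12 genes of replication licensing and the replication fork, 3 of nucleotide supply, 10 of mitosis and 2 proliferation markers. The RNA came from the chromatin fraction of C57BL/6J bone-marrow-derived macrophages, and total RNA was sequenced after ribosomal RNA depletion. The 3 libraries form a single group: the macrophages were exposed to Lipid A at 100 ng/ml for 12 h, kept without it for 12 h, and given Lipid A at 100 ng/ml again for 25 min. Lipid A is the part of bacterial lipopolysaccharide that Toll-like receptor 4 recognises. Untreated cells and other times are not analysed here, so every value below is a level in restimulated cells and none is a response. Each library is described as a biological replicate with its own number, yet all carry the same donor identifier. Age and sex are not given, nor whether the replicates were separate cultures. The spread given is thus that between these 3 libraries, and may be technical.

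A cell enters the cycle when D cyclins activate CDK4 and CDK6, which phosphorylate the retinoblastoma protein and release E2F factors from it. E2F then raises the genes for E and A cyclins, for the MCM helicase that is loaded at origins, and for the enzymes that make deoxynucleotides, whereas the mitotic genes peak later under the DREAM and MuvB complexes, which act through CHR and CCAAT elements. Bone-marrow macrophages divide under CSF1 and are known to leave the cycle when lipopolysaccharide is given, with the CDK inhibitor p21 (Cdkn1a) among the genes that restrain them.

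The libraries held 13502401, 17848798 and 17824176 expected counts on annotated genes in replicates 1, 2 and 3, of which the 44 genes took 10888, 11145 and 13872. The RNA put into library preparation was 1000, 250 and 500 ng in that order. The 3 loci known to hold ribosomal RNA sequence took 11.1%, 31.8% and 24.8% of the counts, again in that order. All 10 macrophage markers were detected, with a summed level of 1332 to 1367 TPM (a level per transcript length, scaled to the same sum in each library). Of the markers of other cells, none of 7 neutrophil, 5 dendritic, 5 B cell, 5 fibroblast and 4 progenitor genes reached 1 TPM in every library, and 1 of 6 T cell genes (Cd4) and 1 of 6 erythroid genes (Alas2) did. The T cell genes Cd3e, Cd3d and Cd3g lay between 0 and 1 count in each library. In a second quantification of the same libraries, described below, 3 of 6 T cell, 2 of 5 dendritic, 1 of 7 neutrophil, 1 of 5 fibroblast, 1 of 4 progenitor and 1 of 6 erythroid genes reached 1 TPM in every library, and Cd3d was at 12.1 ± 4.41 TPM. Fibroblast markers had 1 count in replicate 1 against 73 and 80 in replicates 2 and 3, and progenitor markers 46 against 9 and 23; their part in the values below was not tested. In bulk RNA a smaller share of cycling cells and less RNA per cell cannot be told apart.

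Promoter sequences are shown first, since the role groups used below are known for the elements in their promoters. RefSeq promoter windows (GRCm38.p6, 250 bases before to 50 after the annotated start) were matched for 35 of the 44 genes, in 41 windows. Each window was searched on both strands for the E2F motif written as TTTCCCGC, TTTCGCGC, TTTGCCGC or TTTGGCGC, for the CHR element written as TTTGAA or TTCGAA, and for CCAAT. An E2F match was present in 10 of 41 windows (24.4%), against 2.26% of all 32851 windows and 2.85% of the 21262 protein-coding ones. In the licensing and fork group 6 of 11 windows had one, in the D cyclin and CDK4/6 group 0 of 4 and in the CDK inhibitors 0 of 5. The 4 windows belong to Cdk4, Cdk6 and Ccnd3, and Ccnd1 and Ccnd2 had none. With 2.85% of protein-coding windows matched, groups of 4 and 5 windows are too small to show a lack of matches. A CHR match was present in 14 of 41 windows (34.1%, against 19.2% of all windows), and in 7 of 9 mitotic windows. CCAAT was present in 28 of 41 windows (68.3%, against 37.4%), including 8 of 9 mitotic and 9 of 11 licensing windows. The 200 bases before the start of 5 genes are printed 5′ to 3′ on the strand of the gene, with matches in capitals: 2 MCM genes that hold overlapping E2F matches, Cdk1 with all 3 elements, Top2a with the most CHR matches, and Cdkn1a, the gene of highest level, with none. The windows are chr1:128359706-128359905 (Mcm6, minus strand), chr8:75109309-75109508 (Mcm5, plus), chr10:69352913-69353112 (Cdk1, minus), chr11:99024190-99024389 (Top2a, minus) and chr17:29093569-29093768 (Cdkn1a, plus, before the start of transcript Cdkn1a-201).
Mcm6: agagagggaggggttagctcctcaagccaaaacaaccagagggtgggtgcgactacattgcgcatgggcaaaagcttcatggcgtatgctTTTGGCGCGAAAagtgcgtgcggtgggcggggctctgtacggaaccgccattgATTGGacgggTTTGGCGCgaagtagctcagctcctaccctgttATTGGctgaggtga
Mcm5: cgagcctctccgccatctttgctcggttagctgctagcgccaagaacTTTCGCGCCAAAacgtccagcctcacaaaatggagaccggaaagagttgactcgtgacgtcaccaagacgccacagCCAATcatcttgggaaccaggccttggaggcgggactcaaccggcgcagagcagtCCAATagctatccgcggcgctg
Cdk1: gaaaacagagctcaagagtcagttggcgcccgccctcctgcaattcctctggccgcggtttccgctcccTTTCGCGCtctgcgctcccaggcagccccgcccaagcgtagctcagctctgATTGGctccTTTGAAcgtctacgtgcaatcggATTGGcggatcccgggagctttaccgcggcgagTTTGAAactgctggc
Top2a: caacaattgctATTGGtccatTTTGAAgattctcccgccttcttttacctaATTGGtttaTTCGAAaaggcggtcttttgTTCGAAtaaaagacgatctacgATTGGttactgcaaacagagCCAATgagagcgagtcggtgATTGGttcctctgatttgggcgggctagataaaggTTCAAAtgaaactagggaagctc
Cdkn1a: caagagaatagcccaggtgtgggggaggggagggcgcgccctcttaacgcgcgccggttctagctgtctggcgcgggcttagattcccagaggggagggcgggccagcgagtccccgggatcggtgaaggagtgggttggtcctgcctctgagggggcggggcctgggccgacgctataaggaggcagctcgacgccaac
In these 200 bases Mcm6 had 3 E2F and 2 CCAAT matches, Mcm5 had 2 and 2, Cdk1 had 1 E2F, 2 CHR and 2 CCAAT matches, and Top2a had 4 CHR and 5 CCAAT matches. A match is a string in the sequence and says nothing of binding in these cells.

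Cdkn1a, Rb1 and Cdk6 were the highest of the 44 at 88.5 ± 18.9, 59.2 ± 6.56 and 40.6 ± 8.36 TPM (mean ± SD, n = 3), and held 53.2%, 47.8% and 55.6% of the set's summed TPM in replicates 1, 2 and 3. Cdc20, Ccnb2 and Plk1 were the lowest, at 0.227 ± 0.143, 0.280 ± 0.0794 and 0.427 ± 0.110 TPM. Detection was set at 1 TPM in every library, and 31 of 44 genes reached it (70.5%), where 44% of all protein-coding genes did. The median log2(TPM + 1) of the 44 was 1.94 ± 0.13, against 0.61 ± 0.03 for all protein-coding genes. Protein-coding genes held 25.4% to 29.8% of all TPM in a library, and rescaling TPM over these genes alone moved the 2 medians to 3.52 and 1.56 and put 42 of the 44 genes over 1 TPM. The share of all protein-coding genes over 1 TPM on that scale was not counted. Of the 44 genes, 3 lay at or above the 90th percentile of protein-coding genes, 7 were over 10 TPM in every library, and 6 were under 1 TPM in every library.

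**Figure D1:**
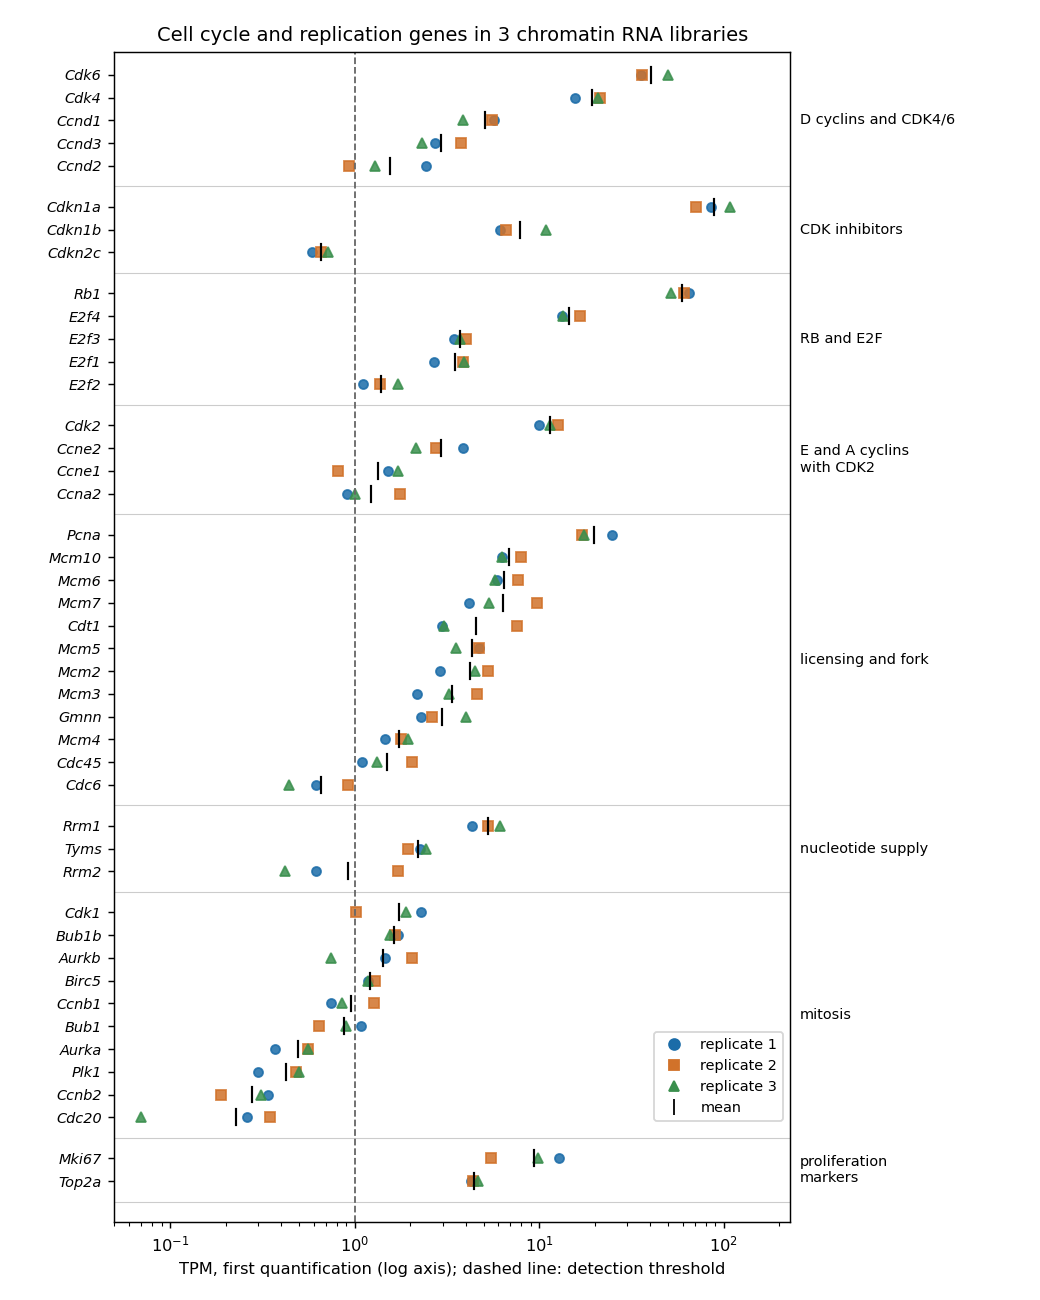
Level of each of the 44 genes in TPM (log axis) in replicates 1 to 3 (blue circles, orange squares, green triangles) with their mean as a black bar, grouped by role. CDK inhibitor Cdkn1a, Rb1 and Cdk6 lie furthest right, and 7 of 10 mitotic genes fall below the 1 TPM line in at least 1 library.

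Detection differed between the role groups. All 5 RB and E2F genes and both proliferation markers were detected, as were 11 of 12 licensing and fork genes and 4 of 5 genes of the D cyclin group. Detection was reached by 3 of 10 mitotic genes, 2 of 4 E and A cyclin genes, 2 of 3 CDK inhibitors and 2 of 3 genes of nucleotide supply. In the second quantification described below, 7 of 10 mitotic genes, all 4 E and A cyclin genes and all 5 genes of the D cyclin group reached it, and the other groups' counts were as in the first, so the low count of the mitotic group rests on the first quantification. The median log2(TPM + 1) of the D cyclin group exceeded that of the mitotic group by 1.82, 1.85 and 1.44 in the 3 libraries (1.70 ± 0.23), with no overlap between the groups' medians. The genes just on either side of the threshold were Cdk1, whose lowest library was at 1.02 TPM, and Ccnd2, whose lowest was at 0.93 TPM.

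Among the CDK inhibitors, Cdkn1a stood far above the others. Cdkn1a (ENSMUSG00000023067, chr17:29090976-29100727, plus strand), which encodes p21, was at 85.53, 71.20 and 108.71 TPM (1559, 1342 and 2392 counts), at the 97.4th percentile of protein-coding genes. Cdkn1b, which encodes p27, was at 6.11, 6.62 and 10.86 TPM. Cdkn2c, which encodes the INK4 protein p18, was at 0.59, 0.66 and 0.72 TPM (15, 18 and 24 counts). All 3 inhibitors were highest in replicate 3 (2 of 3 in the second quantification), as were 20.7% of the protein-coding genes that passed the count filter, and no library of one overlapped any library of another. The log2 ratio of TPM + 1 within a library was 3.35 ± 0.22 for Cdkn1a over Cdkn1b and 2.38 ± 0.35 for Cdkn1b over Cdkn2c. Each ratio was positive in 3 of 3 libraries; for the exact two-sided sign-flip permutation test 0.25 is the smallest p that 3 libraries allow, and over the 10 gene pairs tested the Benjamini-Hochberg value was 0.278 for 9 of them. No pair can therefore pass 0.05, and the pairs below are given by their values and directions.

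The Cdkn1a signal lay mainly in 2 protein-coding transcripts. Cdkn1a-203, of 2 exons, was at 44.2 ± 9.32 TPM, and Cdkn1a-201, of 3 exons, at 39.8 ± 13.5 TPM. A transcript model listed as to be experimentally tested (TEC) on the opposite strand, AC167363.2, shares 273 exon bases with Cdkn1a and was listed at 77.86, 93.90 and 152.55 TPM. The setting for strand is not given in the sources used here, so reads of that model and of Cdkn1a may not have been told apart. Of the 44 genes, 14 share exon bases with a gene on the opposite strand, and the same limit holds for them. Among them are Ccnd1, Cdc45, Ccne2 and Ccna2, whose overlapping gene was listed well above them in every library. These were LTO1 (15.80 to 27.62 TPM), Ufd1 (48.54 to 58.16), Ints8 (19.94 to 23.81) and Exosc9 (10.52 to 11.72), in that order.

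Within the D cyclin group, the kinases were well above the cyclins by gene TPM. Models annotated as retaining an intron held 71.2% of the TPM of Cdk4. They held 45.1% for Ccnd1, 54.2% for Ccnd2 and 53.4% for Ccnd3. The largest part of the TPM of Cdk6 lay on a short model, as described below. Cdk6 (chr5:3341485-3531008) was at 35.55, 35.93 and 50.21 TPM and Cdk4 (chr10:127063534-127067920) at 15.72, 21.42 and 20.80 TPM, so that Cdk6 was higher in 3 of 3 libraries, with a log2 ratio of Cdk4 to Cdk6 of -1.03 ± 0.27. Both are the catalytic partners of D cyclins. Of the cyclins, Ccnd1 was at 5.73, 5.58 and 3.89 TPM, Ccnd3 at 2.74, 3.79 and 2.31, and Ccnd2 at 2.44, 0.93 and 1.29. Ccnd1 was above Ccnd3 in every library, with a log2 ratio of Ccnd3 to Ccnd1 of -0.62 ± 0.20, while Ccnd3 and Ccnd2 overlapped. Ccnd1 exceeded Ccnd2 by 1.28 ± 0.43 and Ccnd3 exceeded Ccnd2 by 0.65 ± 0.60, but both directions turned in the second quantification, at -0.05 ± 0.42 and -0.73 ± 0.63. The order of Ccnd2 among the D cyclins thus depends on the quantification. Ccnd2 and Ccnd3 also had the largest biological coefficients of variation (BCV, the square root of edgeR's dispersion of counts) of the 40 genes fitted, at 0.305 and 0.295. By TPM the coefficient of variation was largest for Rrm2 (76.4%), Cdc20 (63.1%) and Cdt1 (57.9%), ahead of Ccnd2 (50.8%), and Ccnd3 was at 25.8%. The counts were 149, 63 and 100 for Ccnd2 and 62, 143 and 65 for Ccnd3, so replicate 2 was the lowest for one and the highest for the other.

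Cdk6 spans 189524 bases, and its level came from transcripts at its 5′ end as well as from the full gene. The 2-exon transcript Cdk6-203, of 697 nt, which ends 49208 bases from the gene's start, was at 18.5 ± 2.86 TPM, or 45.6% of the gene. The 8-exon transcript Cdk6-202, of 11525 nt, was at 9.06 ± 1.86 TPM but held 1517, 1261 and 1987 counts, against 121, 111 and 168 for Cdk6-203. The largest part of the gene's TPM thus came from few reads on a short model, and most of its counts from the long one. Antisense models Gm17590 and Gm42435 inside the gene were at 7.51 to 11.19 and 4.94 to 6.83 TPM.

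Among the RB and E2F genes, the retinoblastoma gene and the repressor-type E2F4 were the highest. Rb1 (chr14:73183673-73325822) was at 64.70, 60.97 and 51.95 TPM, the second highest of the 44 genes, with overlapping models Lpar6 and Rcbtb2 on the opposite strand at 15.05 to 19.29 and 17.68 to 23.98 TPM. E2f4 was at 13.29, 16.63 and 13.51 TPM. The activator E2F genes were lower and overlapped one another in part: E2f3 was at 3.48, 4.02 and 3.73 TPM, E2f1 at 2.70, 3.86 and 3.91, and E2f2 at 1.11, 1.37 and 1.71. Rb1 exceeded E2f1 by 3.75 ± 0.37 and E2f4 exceeded E2f1 by 1.79 ± 0.20 on the log2(TPM + 1) scale, each in 3 of 3 libraries.

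Of the kinase and cyclins that carry cells into and through S phase, only Cdk2 was over 5 TPM in the first quantification. Cdk2 was at 10.01, 12.73 and 11.51 TPM. Cyclin E genes Ccne2 and Ccne1 were at 3.87, 2.75 and 2.15 and at 1.52, 0.81 and 1.71 TPM, and their ranges did not overlap. In the second quantification they were at 7.72, 4.96 and 6.05 and at 5.20, 5.29 and 4.73 TPM. There the ranges overlapped, Ccne1 was the higher in replicate 2, and both means were over 5 TPM. The cyclin A gene Ccna2 was at 0.91, 1.77 and 1.01 TPM (28, 50 and 31 counts). Ccna2 and Ccne1 overlapped, and each fell below 1 TPM in 1 library.

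The licensing and fork genes formed an intermediate tier led by Pcna, the sliding clamp of the DNA polymerases. Pcna (chr2:132249162-132253314) was at 24.70, 17.03 and 17.48 TPM. Mcm10, an initiation factor, followed at 6.29, 7.99 and 6.29 TPM, and Cdc6, which helps load the helicase, was the lowest at 0.62, 0.92 and 0.44 TPM. The 6 subunits of the MCM2 to MCM7 ring, which form the helicase in equal parts as protein, did not have equal levels on chromatin: means ran from 1.73 ± 0.25 TPM for Mcm4 through 3.35 ± 1.22 for Mcm3, 4.24 ± 1.22 for Mcm2, 4.34 ± 0.67 for Mcm5 and 6.40 ± 2.92 for Mcm7 to 6.44 ± 1.04 for Mcm6. The highest subunit was 4.03, 5.45 and 2.96 times the lowest in replicates 1, 2 and 3. Mcm4 lay below each of the other 5 in every library, whereas Mcm2, Mcm3 and Mcm5 overlapped. Mcm7 shares exon bases with Ap4m1 and Cops6 on the opposite strand and hosts 3 microRNA genes, which limits how its reads can be assigned. Cdc45, a part of the active helicase, was at 1.10, 2.05 and 1.33 TPM.

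The licensing factor Cdt1 and its inhibitor Gmnn (geminin) were at like levels. Cdt1 was at 2.99, 7.59 and 3.07 TPM and Gmnn at 2.28, 2.64 and 4.01 TPM. The log2 ratio of Cdt1 to Gmnn was 0.28, 1.24 and -0.30 (0.41 ± 0.78), positive in 2 of 3 libraries, with p = 0.75 by the exact two-sided sign-flip permutation test and an adjusted p of 0.75. Without replicate 2 it was -0.01 ± 0.41, so the sign of the mean rested on that library.

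Replicate 2 was the highest library for 9 of the 12 licensing and fork genes. Among protein-coding genes that passed the count filter, 38.9% were highest in replicate 2, 40.5% in replicate 1 and 20.7% in replicate 3, and 21 of the 44 genes were highest in replicate 2. The 9 were Mcm2, Mcm3, Mcm5, Mcm6, Mcm7, Mcm10, Cdc45, Cdc6 and Cdt1, and Pcna, Mcm4 and Gmnn were the exceptions. The count of 9 held with TPM rescaled over protein-coding genes and with TMM-scaled CPM (counts scaled to library size), against 41.9% and 36.4% of protein-coding genes, and was 7 in the second quantification, against 16.0%. By TMM-scaled CPM, replicate 1 was highest for 2 of the 12 genes and replicate 3 for 1. By TPM these were 1 and 2, so the 9 need not be the same genes on both scales. Replicate 2 had the smallest RNA input, at 250 ng, and the largest ribosomal share, at 31.8%; their part in this pattern was not tested. Of the other lists, 8 of 11 checkpoint and CDC25 genes, 10 of 18 genes of the DNA polymerase and fork list and 4 of 12 of the origin recognition and GINS list were highest in replicate 2 by TPM, and 2, 4 and 3 of them in the second quantification. Whether the lists differ in this was not tested.

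**Figure D2:**
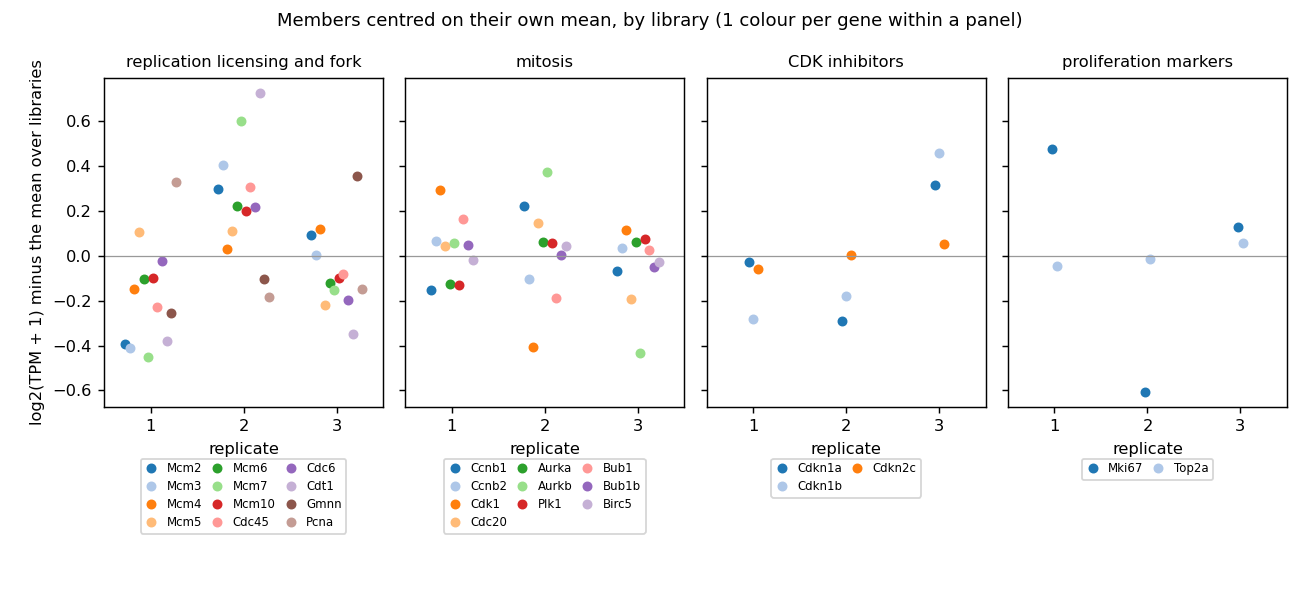
Level of each gene as log2(TPM + 1) minus its own mean over the libraries, for 4 role groups and replicates 1 to 3, with 1 colour per gene in each panel. For 9 of 12 licensing and fork genes the replicate 2 point is the highest, Mki67 is lowest there, and the 3 CDK inhibitors are highest in replicate 3.

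The proliferation markers did not share that pattern. Mki67, which encodes the Ki-67 antigen of cycling cells, was at 12.81, 5.52 and 9.85 TPM (1683, 875 and 1608 counts), and was lowest in replicate 2, where the MCM genes were high. A model on the opposite strand of Mki67, Gm45240, which shares none of its exon bases, was likewise lowest in replicate 2, at 3.27 TPM against 8.03 and 8.73. Top2a, the topoisomerase that untangles sister chromatids, was at 4.30, 4.41 and 4.68 TPM and hardly varied, with a coefficient of variation of 4.38%.

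Of the genes of nucleotide supply, the large subunit of ribonucleotide reductase was higher than the small one by gene TPM. Rrm1 was at 4.34, 5.32 and 6.11 TPM and Rrm2, whose product is the subunit made in S phase, at 0.62, 1.73 and 0.42 TPM (8, 23 and 11 counts). Rrm1 exceeded Rrm2 by 1.75 ± 0.56 on the log2(TPM + 1) scale, in 3 of 3 libraries. The exact 95% Poisson intervals of the Rrm2 counts were 3.45 to 15.8, 14.6 to 34.5 and 5.49 to 19.7, which cover counting error only and overlap between all 3 libraries. Tyms, which makes thymidylate, was at 2.25, 1.95 and 2.45 TPM. Models annotated as retaining an intron held 61.2% of the TPM of Rrm1, 55.2% for Rrm2 and 67.1% for Tyms. In the second quantification these shares were 84.4%, 50.2% and 18.8%.

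In the first quantification the mitotic genes were near or under the threshold, with fewer than 50 counts in every library for 9 of the 10. Cdk1, the mitotic kinase, was at 2.29, 1.02 and 1.90 TPM (21, 36 and 42 counts), and Bub1b, a checkpoint kinase, at 1.73, 1.65 and 1.55 TPM. Birc5 (survivin) was at 1.19, 1.29 and 1.18 TPM and was the other detected gene. Part of the Cdk1 and Bub1b levels came from few reads on short models annotated as retaining an intron. In replicate 1 Cdk1-204 and Cdk1-203, of 475 and 378 nt, were at 0.81 and 0.91 TPM from 3 and 2 counts. The coding Cdk1-201 was at 0.25 TPM there. Bub1b-203, of 385 nt, was at 0.94, 0.37 and 0.58 TPM from 2, 1 and 2 counts. The coding Bub1b-201 was at 0.80, 0.87 and 0.80 TPM. Aurkb and Aurka, the kinases of the midzone and the spindle pole, were at 1.46, 2.06 and 0.75 and at 0.37, 0.56 and 0.56 TPM. Plk1 was at 0.30, 0.48 and 0.50 TPM, and the B cyclin genes Ccnb1 and Ccnb2 at 0.75, 1.27 and 0.86 and at 0.34, 0.19 and 0.31 TPM. The lowest gene was Cdc20, the activator of the anaphase-promoting complex, at 0.26, 0.35 and 0.07 TPM (3, 2 and 2 counts). At 2 to 22 counts a library for Cdc20, Ccnb2, Aurka, Ccnb1 and Aurkb, differences between libraries were not detectable at this depth. Elovl1, which shares 53 exon bases with Cdc20 on the opposite strand, was at 23.90 to 33.95 TPM.

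Lists of other cell cycle genes are given for comparison. Over 8 lists of 91 genes, none of them among the 44, 70 were detected (76.9%), where 44% of all protein-coding genes were. In the origin recognition and GINS list 11 of 12 were detected, led by Orc3 and Orc4, subunits of the origin recognition complex, at 58.1 ± 8.91 and 51.3 ± 12.0 TPM. In the DNA polymerase and fork list 15 of 18 were detected, led by the clamp loader subunits Rfc2 and Rfc1 at 84.1 ± 7.21 and 27.2 ± 4.70 TPM. The DREAM and other E2F list had 13 of 15, led by the RB relatives Rbl1 and Rbl2 at 19.7 ± 5.08 and 18.8 ± 1.14 TPM, and the checkpoint and CDC25 list had 9 of 11, led by Mdm2, the p53 ubiquitin ligase, at 200 ± 47.1 TPM and Atr, a replication-stress kinase, at 18.3 ± 2.14 TPM. Of 5 other nucleotide and S phase genes 3 were detected, led by thymidine kinase Tk1 at 32.8 ± 1.60 TPM and the histone mRNA binder Slbp at 18.3 ± 2.37 TPM. The kinetochore and spindle list had 6 of 13 (46.2%), near the share of all protein-coding genes. It was led by securin (Pttg1) at 11.6 ± 1.40 TPM and the centromeric histone Cenpa at 5.39 ± 2.04 TPM. None of the 4 other CDK inhibitors was detected; the highest were Cdkn1c at 1.43, 0.89 and 2.59 TPM and Cdkn2b at 0.51, 0.49 and 0.66 TPM. All 13 genes of a quiescence and cyclin G list were detected, but its leading genes, Ccnl1 at 429 ± 154 and Cdk9 at 114 ± 3.95 TPM, act in splicing and transcription elongation and not in the cycle. The 76.9% over the 8 lists includes these 13 genes and is raised by them.

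**Figure D3:**
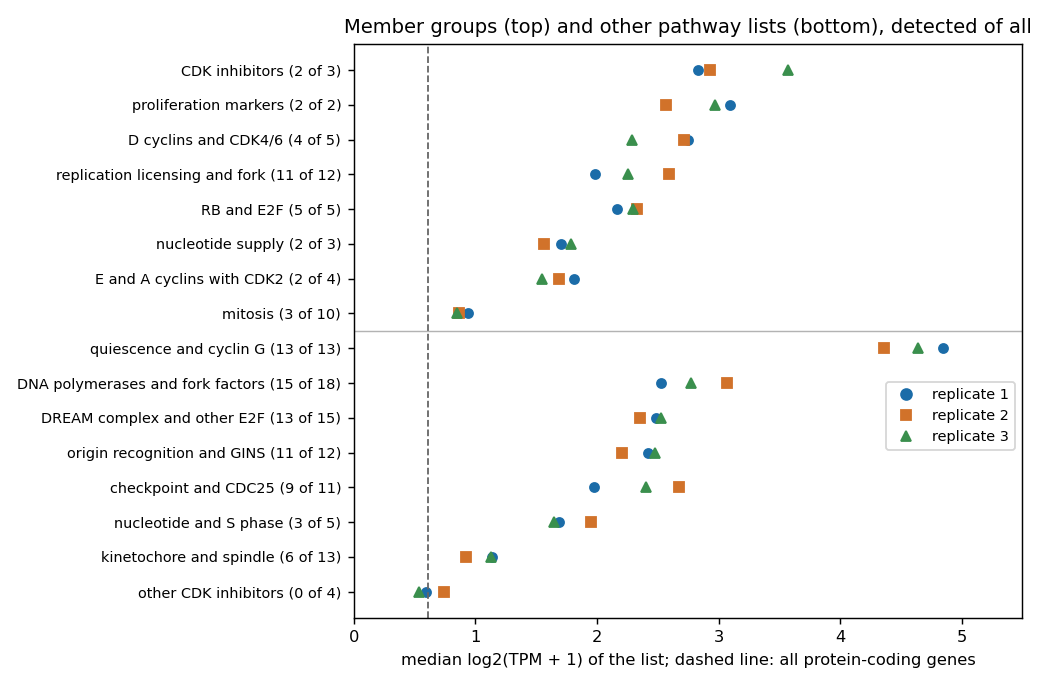
Median log2(TPM + 1) of each role group of the 44 genes (above the line) and of the other pathway lists (below it) in replicates 1 to 3, with the number detected of all in each label; the dashed line is the median of protein-coding genes at 0.61. The mitotic and the kinetochore and spindle lists lie lowest but for the other CDK inhibitors.

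The files hold a second quantification of the same libraries per transcript, which gave 39 of the 44 genes a higher mean level than the first. Its detection count was 38 of 44, where it was 53.7% over protein-coding genes. For 12 genes its mean was over 2 times that of the first: Ccnd2, E2f3, Ccne1, Ccne2, Rrm1, Tyms, Ccnb2, Cdk1, Aurka, Aurkb, Plk1 and Birc5. Of the 31 genes detected in the first, 6 were among them (19.4%), a share near the 17.3% found over all detected protein-coding genes. No gene was under 0.5 times the first, and for 15 genes the ratio was between 0.8 and 1.2, Cdkn1a (0.913), Cdk6 (0.941) and Cdk4 (0.866) among them.

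**Figure D4:**
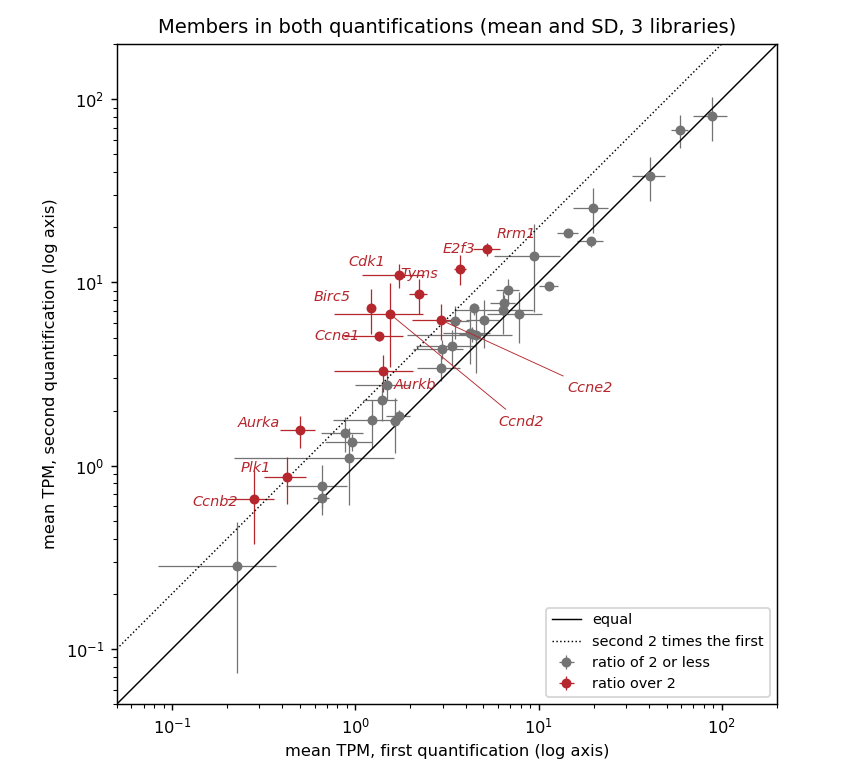
Mean TPM of each of the 44 genes in the second quantification against the first (both log axes, bars are SD over 3 libraries), with lines of equality and of a 2-fold ratio. The 12 named genes in red lie above the 2-fold line, and the genes over 20 TPM lie near equality.

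For the mitotic kinase the difference was the widest. Cdk1 was at 12.71, 10.58 and 9.59 TPM in the second quantification, 6.31 times the first, and 81.5% of this sat in 1 transcript, Cdk1-207, at 8.94 ± 1.69 TPM against 0.16 ± 0.16 in the first. Birc5 was at 9.54, 5.91 and 6.27 TPM, 5.93 times the first, with 96.1% in Birc5-202. The mitotic group's median log2(TPM + 1) was 1.32 ± 0.06 in the second quantification against 0.88 ± 0.05 in the first. Over all protein-coding genes it was 1.55 ± 0.09 in the second against 0.61 ± 0.03 in the first. The mitotic group thus lay above the median of protein-coding genes in the first quantification and below it in the second.

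Of the others, Tyms, E2f3 and Ccne1 had most of their second level in 1 model. Tyms was at 10.72, 7.90 and 7.24 TPM, with 58.7% in Tyms-201, which had 0.75% of the gene in the first quantification. E2f3 was at 9.67, 14.02 and 11.91 TPM, with 67.5% in the noncoding model E2f3-202, listed at 0 in the first. Ccne1 was at 5.20, 5.29 and 4.73 TPM, with 63.5% in Ccne1-202. The second tables also gave these genes more estimated counts: 500, 602 and 503 for Tyms against 70, 81 and 73 in the first, 315, 523 and 509 for E2f3 against 206, 291 and 287, and 58, 86 and 61 for Ccne1 against 21, 19 and 20. The cause was not tested. Rrm1 was at 14.84, 14.25 and 16.56 TPM, with 42.9% in the 2-exon model Rrm1-203, and Ccnd2 was at 10.43, 4.66 and 5.01 TPM, with 49.9% in the coding Ccnd2-201 and 23.7% and 16.2% in Ccnd2-203 and Ccnd2-207, both at 0 in the first. Ccne2 was split between Ccne2-201 (48.9%) and Ccne2-206 (44.9%), and Ccnb2 has all of its signal in 1 model in both quantifications. For Ccne2, Aurkb, Aurka, Plk1 and Ccnb2 the second means were 6.24 ± 1.39, 3.27 ± 0.74, 1.56 ± 0.31, 0.867 ± 0.251 and 0.660 ± 0.288 TPM.

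Chromatin RNA holds transcripts that are not fully spliced, and the annotation names some of these as retained-intron transcripts. The share of a gene's TPM in them was taken for the 8 of the 44 genes with both coding and retained-intron models and at least 5 TPM in every library. Its median was 50.8% ± 3.17, against 46.0% ± 2.42 over 4730 genes chosen in the same way. By expected counts the order of the 2 medians turned, at 25.9% ± 2.40 against 29.0% ± 2.26. The highest shares were those of Cdk4 (70.3%, 70.9% and 72.4%), Cdk2 (56.4%, 62.8% and 58.5%), Pcna (49.1%, 64.3% and 58.7%) and Rb1 (52.5%, 56.6% and 48.8%). Cdk6 had the lowest, at 7.73% ± 2.17. For Cdk4 and Cdk2 the share by counts was close to that by TPM, at 66.1% ± 0.41 and 64.3% ± 2.98, while for Rb1 it was 9.12% ± 0.82. The retained-intron models of Rb1, Rb1-205 and Rb1-204, are 355 and 946 nt long, beside 4656 nt for the coding Rb1-201.

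**Figure D5:**
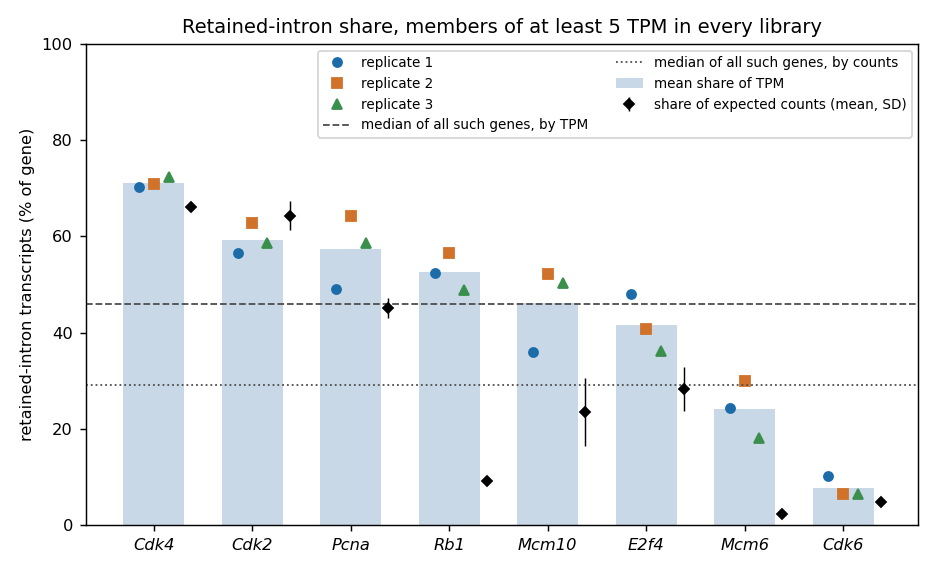
Share of each gene in retained-intron transcripts, as percent of TPM (bars are means, points the 3 libraries) and as percent of expected counts (black diamonds, mean and SD), for the 8 genes of at least 5 TPM; lines are medians over all such genes. Cdk4 is highest by TPM at 71.2%, and Rb1 falls from 52.6% by TPM to 9.12% by counts.

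The splice sites of whole introns held inside these transcripts are shown, since they are the sequences that separate the unspliced from the coding model. Each line gives 40 bases of the retained-intron transcript from GENCODE M21 (GRCm38), with 20 exon bases in lower case and 20 intron bases in capitals, first at the intron's 5′ end and then at its 3′ end. All flanking exon bases are coding.
Cdk4 intron 5, 5′ end: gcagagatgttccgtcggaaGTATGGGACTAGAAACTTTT
Cdk4 intron 5, 3′ end: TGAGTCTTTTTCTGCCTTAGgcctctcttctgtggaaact
Cdk4 intron 2, 5′ end: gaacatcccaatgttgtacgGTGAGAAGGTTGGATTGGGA
Cdk4 intron 2, 3′ end: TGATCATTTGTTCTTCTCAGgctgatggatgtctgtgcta
Cdk2 intron 1, 5′ end: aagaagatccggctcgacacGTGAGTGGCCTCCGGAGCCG
Cdk2 intron 1, 3′ end: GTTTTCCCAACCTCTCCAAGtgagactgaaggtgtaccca
Pcna intron 2, 5′ end: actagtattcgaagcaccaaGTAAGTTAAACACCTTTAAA
Pcna intron 2, 3′ end: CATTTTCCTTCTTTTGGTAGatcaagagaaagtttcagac
Pcna intron 3, 5′ end: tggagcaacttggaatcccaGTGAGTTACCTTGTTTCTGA
Pcna intron 3, 3′ end: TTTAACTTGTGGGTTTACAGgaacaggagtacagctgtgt
Cdk4 intron 5 (chr10:127065265-127065952, 688 bp) lies in Cdk4-207, at 5.48 ± 0.53 TPM, and Cdk4 intron 2 (chr10:127064454-127064584, 131 bp) in Cdk4-203, at 6.70 ± 1.47 TPM. The full coding transcript Cdk4-201 was at 2.05 ± 0.28 TPM. Cdk2 intron 1 (chr10:128704004-128704711, 708 bp) lies in Cdk2-205, at 3.51 ± 0.38 TPM beside 4.09 ± 0.86 for the coding Cdk2-202. Pcna introns 2 and 3 (chr2:132251759-132251902 and chr2:132251439-132251690, 144 and 252 bp) lie in Pcna-202, at 6.38 ± 1.03 TPM beside 5.77 ± 0.74 for the coding Pcna-201. Cdk2-205 against Cdk2-202 and Pcna-202 against Pcna-201 did not differ beyond the spread between libraries, whereas both Cdk4 models exceeded Cdk4-201. These compare single models: Cdk2-204 also holds the whole of intron 1, and Pcna-204 holds part of intron 4. All retained-intron models together held 59.2% of the TPM of Cdk2 and 57.4% of that of Pcna. All 5 introns begin with GT and end with AG. Cdk4 shares 641 exon bases with Tspan31 on the opposite strand, listed at 4.22 to 11.30 TPM, which bears on its 3′ models.

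The spread between libraries was described by the BCV. Of the 44 genes 40 passed the count filter, with a median BCV of 0.219, against 0.203 over the 14193 genes fitted, and 27 of the 40 were above that median. Values ran from 0.166 for Rb1 to 0.305 for Ccnd2, and after Ccnd2 and Ccnd3 the largest were those of Rrm2 (0.282) and Cdc6 (0.262). Ccnb1, Ccnb2, Cdc20 and Aurka did not pass the filter. With 3 libraries edgeR draws each gene's dispersion strongly towards the trend; with almost no such shrinkage, an alternative added after seeing the data, the medians were 0.187 and 0.137.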

How the data were processed

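Per the labels, total RNA of the chromatin fraction was depleted of ribosomal RNA and sequenced in 3 libraries of 1 group. The authors deposited, per library, a gene and a transcript table with expected counts and TPM (first quantification; the column names are those of RSEM, per the file headers) and a second transcript table with estimated counts and TPM (column names of kallisto, per the file headers), on mm10. Credibility bounds of TPM in the deposited tables were not used for any result. Aligner, tool versions and strandedness of the counting were not given in the sources used here. IDs were matched to GENCODE M21 (55536 genes, all matched); rows of no annotated gene, 0.239% to 1.75% of counts, were left out. Second-table TPM was summed per gene. Depth was 13502401 to 17848798 expected counts; a count of 0 would allow up to 3 counts.

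Levels are TPM as deposited, log2 values use a pseudocount of 1, and detection means at least 1 TPM in every library. With 1 group there is no contrast; 10 gene pairs were compared within libraries by an exact two-sided sign-flip permutation test with Benjamini-Hochberg adjustment. BCV came from edgeR 4.0.16 (filterByExpr, TMM, estimateDisp) on rounded expected counts, over all genes, tested on simulated data; DESeq2 1.42.0 was the alternative. Python 3.11.15, scipy 1.17.1 and R 4.3.3 were used. The 44 genes, role groups, pairs and pathway lists were chosen with earlier results of these data known. Values in every library are given for the 2 highest and the lowest gene of each role group, members of the pairs, genes next to the detection threshold, the 4 of highest BCV and those whose mean differs over 2 times between quantifications; the 4 of highest retained-intron share and the 2 highest of each other list are named. Motifs, splice windows and overlapping genes were chosen after their values were seen, as were other values per library.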

Additional observations from a re-analysis of the deposited data

How the results depend on the processing

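Of the 44 genes 31 were detected at the main setting, and 24 to 42 over the 8 alternatives. The count was 24 at 2 TPM, 38 at 0.5 TPM, 37 with the posterior mean TPM and 42 after rescaling over protein-coding genes. Leaving out 1 library gave 32 to 33. The share over all protein-coding genes was counted at the main setting (44%) and in the second quantification (53.7%, beside 38 of the 44). The other counts have no such share beside them. The median log2 level of 1.94 moved to 1.55 with a pseudocount of 0.1, 2.45 over detected genes only, 2.64 in the second quantification, 3.52 after rescaling and 2.21 with the posterior mean, and was 1.87 to 1.99 without 1 library. The D cyclin minus mitosis difference of 1.70 was 2.44 with a pseudocount of 0.1, 2.13 over detected genes only, 2.24 after rescaling and 1.68 in the second quantification, and 1.63 to 1.83 without 1 library; its direction did not turn in these. The retained-intron median of 50.8% was 47.5% at a gene TPM of at least 1, 53.8% in the second quantification and 25.9% by expected counts, the last added after seeing the data, and 49.0% to 52.0% without 1 library. The median BCV of 0.219 was 0.247 with DESeq2, 0.246 with no filter and 0.182 to 0.253 without 1 library. Over all genes fitted it was 0.218 with DESeq2, 0.279 with no filter and 0.165 to 0.240 without 1 library. With no filter the median of the 44 genes thus lay below that of all genes, and the order of the main setting turned.

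Of 60 alternatives over the 10 pairs 57 kept the direction. For a pair of the same sign in every library, another pseudocount, rescaling or leaving out 1 library cannot turn the direction. Only the second quantification could turn such a pair, so the count of 57 is no measure of how firm the directions are. The 3 that turned were Ccnd3 to Ccnd2 (-0.73) and Ccnd1 to Ccnd2 (-0.051), both in the second quantification, and Cdt1 to Gmnn (-0.0085 to 0.76 over the libraries left out in turn, the lowest without replicate 2); the cause was not tested beyond the transcript shares given above. No paired analysis was possible because all libraries belong to 1 group. Depth limits the mitotic genes most, with 7 counts in all for Cdc20 and 17 for Ccnb2.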
